A study of Mus musculus with 32 samples.

Results

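Auranofin was compared with vehicle in epididymal white fat (eWAT), the visceral depot that lies beside the epididymis, in wild-type mice of the strain labelled C57/Bl6j. The comparison covers 8 of the 32 RNA sequencing libraries of the series, 4 from auranofin-treated and 4 from vehicle-treated mice, and 13847 of the 54532 genes in the table, those with a mean of 0.5 FPKM or more over the 8 libraries. All mice, those given vehicle included, had eaten a diet with 60% fat for 12 weeks. They then received either auranofin at 1 mg per kg of body weight or vehicle, 3 times a week for 4 weeks. The other libraries come from inguinal white fat (iWAT, a subcutaneous depot), brown fat (BAT) and liver of the same design. The labels give neither the age of the mice nor whether each library is a separate animal, so a p-value reflects only how much the libraries vary, which may be technical. The title of the series names the accumulation of the drug in white fat, lower leptin and an anti-diabetic effect, and the comparison in eWAT asks which transcripts differ in the visceral depot.

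Epididymal fat stores triglyceride in large white adipocytes and releases it as fatty acids when beta-adrenergic signals activate lipolysis. In obesity this depot gathers macrophages, many of them loaded with lipid, lays down collagen and shows dividing stromal and immune cells. Auranofin is a gold compound once used against rheumatoid arthritis. It binds the selenocysteine of thioredoxin reductase, an enzyme that keeps thioredoxin reduced, and electrophilic stress of this kind is known to release the transcription factor NRF2.

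Values are FPKM, fragments per kilobase of gene scaled to library size, and a level per library is always given in the order of library 1 to 4. A log2 change sets auranofin over vehicle on the scale log2(FPKM + 1), where changes of low genes come out too small. The libraries held 15031255 to 17068533 reads in genes and detected 20306 to 22594 genes. Adipoq, the adipocyte hormone adiponectin, was abundant in every library, at 2944, 2379, 1368 and 1746 FPKM in the auranofin libraries, against 596, 1070, 1395 and 1571 FPKM in the vehicle libraries. Wt1, a transcription factor of visceral fat and mesothelium, was present in all 8 libraries, at 1.42, 1.98, 2.64 and 1.93 FPKM in the auranofin libraries, against 2.71, 2.54, 2.1 and 1.53 FPKM in the vehicle libraries, whereas Ucp1, the uncoupling protein of brown fat, stayed between 0 and 0.441 FPKM.

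Vehicle libraries 1 and 2 stood apart from the other 6. On the first principal component, which held 45.3% of the variance, they lay at 35.6 and 64.6, while the auranofin libraries lay between -36.6 and -10.5 and vehicle libraries 3 and 4 at -8.68 and -7.71. Vehicle library 2 had 8.11% of its reads on the mitochondrial genome, against 2.86% to 4.39% in the other eWAT libraries, and the lowest share of nuclear ribosomal RNA reads. Lists and most genes below are therefore given with all 8 libraries and again without vehicle libraries 1 and 2, which leaves 4 auranofin and 2 vehicle libraries. Auranofin library 1 stood apart on the second component (37.6, with 16.6% of the variance).

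No gene passed an adjusted p of 0.05 in limma, 0% of the 13847 tested. The smallest adjusted p was 0.429, and all 1585 genes with an unadjusted p under 0.05 shared it. Of these, 736 genes (5.32%) were higher with auranofin and 849 (6.13%) were lower. On the TPM scale, where each library is rescaled to the same sum, which moves the median change of all genes to -0.14, the same counts were 290 and 1967. A fit of all 32 libraries of the 4 tissues together, which shares 1 estimate of the spread, passed 491 genes higher and 789 lower. Of the fits of eWAT alone, that with quality weights per library passed 3 genes higher and 3 lower, and that without auranofin library 1 passed 1. Voom on whole reads rebuilt from the table, run with the library sizes that the FPKM values imply, also called 0 genes, with 758 and 888 at an unadjusted p under 0.05. All 4 auranofin libraries lay above all 4 vehicle libraries for 416 genes (3%) and below them for 547 (3.95%). Without vehicle libraries 1 and 2, again 0 of 13833 genes passed (smallest adjusted p 0.0720), and 143 (1.03%) and 168 (1.21%) had an unadjusted p under 0.05. The changes below are therefore values that did not pass over all genes, and p-values given with them are unadjusted limma p-values unless called adjusted. Groups whose values do not overlap are counted beside them.

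Of the protein-coding genes with a mean of 1 FPKM or more in a group and non-overlapping groups, Eid2b had the smallest p. It encodes an inhibitor of differentiation that binds the acetyltransferase EP300, and lies at chr7:28277739-28279489 (mouse build mm10). Eid2b had 4.42, 4.26, 3.67 and 3.88 FPKM in the auranofin libraries, against 2.12, 2.17, 2.48 and 2.45 FPKM in the vehicle libraries, a log2 change of 0.61 ± 0.11 (SE) with an adjusted p of 0.429 in limma. The groups were apart by more than the spread within either, and without vehicle libraries 1 and 2 the change was 0.54. With quality weights per library, Eid2b was 1 of 6 genes that passed, with a change of 0.51 and an adjusted p of 0.0458. The next 4 in this direction were taken under the same conditions, so that their groups do not overlap by choice. Slc22a18, an imprinted gene for a transporter-like membrane protein, had 6.15, 6.51, 5.21 and 3.43 FPKM in the auranofin libraries, against 1.64, 1.02, 2.25 and 2.91 FPKM in the vehicle libraries. The log2 change was 1.11 ± 0.24 (SE), and 0.80 without vehicle libraries 1 and 2. Cenpv, which encodes a centromere-associated protein, averaged 7.38 ± 1.36 FPKM in auranofin libraries and 3.97 ± 0.871 FPKM in vehicle libraries (SD, n = 4 each). The mitochondrial ADP-ribose hydrolase gene Macrod1 averaged 17.2 ± 4.38 FPKM in auranofin libraries and 8.24 ± 2.34 FPKM in vehicle libraries, and the histone deacetylase gene Hdac11 averaged 1.62 ± 0.156 FPKM in auranofin libraries and 0.753 ± 0.285 FPKM in vehicle libraries. The log2 changes of these 3 genes were 0.76, 0.99 and 0.59 with all libraries, and 0.56, 0.66 and 0.40 without vehicle libraries 1 and 2.

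Under the same conditions, non-overlapping groups included, the 5 genes with the smallest p in the other direction were Spata25, Adam12, Mical2, Pvalb and Pdxk. Adam12, a membrane metalloprotease of mesenchymal and fibrotic tissue (chr7:133883199-134232146), had 3.55, 1.64, 2.42 and 3.01 FPKM in the auranofin libraries, against 6.46, 6.69, 5.03 and 5.3 FPKM in the vehicle libraries. This gave a log2 change of -0.93 ± 0.18 (SE), and -0.78 without vehicle libraries 1 and 2. Pdxk, the kinase that makes the active form of vitamin B6 (chr10:78436744-78464975), had 4.83, 5.12, 5.52 and 5.73 FPKM in the auranofin libraries, against 8.53, 7.63, 7.76 and 8.34 FPKM in the vehicle libraries. The spread within each group was small, and the log2 change of -0.53 ± 0.11 (SE) stayed at -0.52 without those libraries. Mical2, which encodes an actin-oxidising enzyme, averaged 1.53 ± 0.379 FPKM in auranofin libraries and 3.25 ± 0.566 FPKM in vehicle libraries, and its log2 change of -0.75 was -0.67 without them. Pvalb, the calcium-buffering protein parvalbumin, averaged 0.917 ± 0.545 FPKM in auranofin libraries and 3.06 ± 0.665 FPKM in vehicle libraries, with log2 changes of -1.12 and -1.06. It is also a skeletal muscle gene, and the 7 muscle markers tested had a median change of -0.15, with 3 above and 4 below 0. Their lowest change, -1.12, equals that of Pvalb, so Pvalb, picked for its small p, appears to be among the 7. The counts that follow are then not separate from that choice. An unadjusted p under 0.05 in the lower direction was reached by 2 of the 7 (28.6%, against 6.13% of all genes). Without vehicle libraries 1 and 2 it was again 2 of 7, against 1.21%. The part of muscle in the value of Pvalb was not tested. Spata25, named for a role in sperm development, averaged 0.186 ± 0.113 FPKM in auranofin libraries and 1.19 ± 0.456 FPKM in vehicle libraries, but its span overlaps Zswim1 on the opposite strand and the kit keeps no strand, so its value is uncertain. The same holds for other genes named here that overlap a protein-coding gene on the other strand: Pfkm, Sod1, Prdx5, Timp4, Mmp19, C2 and Cyp51.

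**Figure D1:**
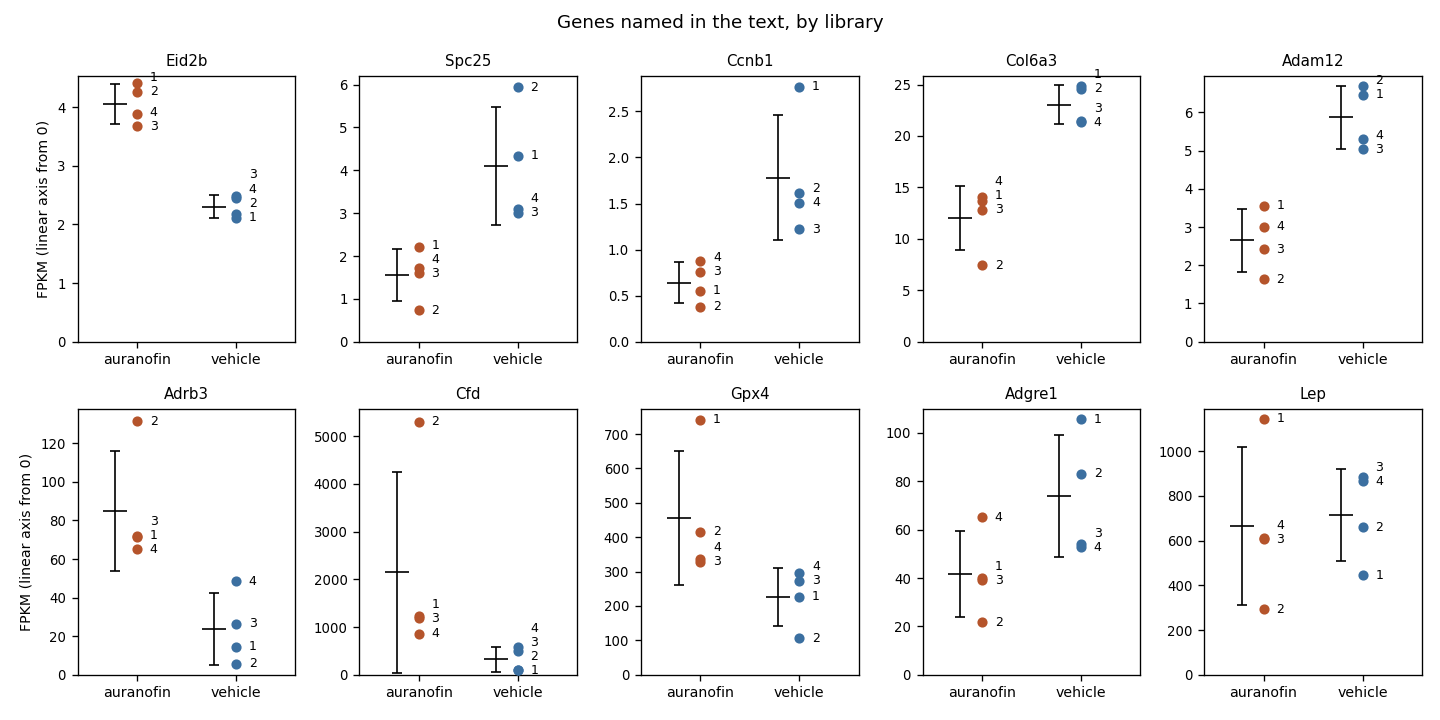
FPKM of 10 genes named in the text, on linear axes from 0, with auranofin libraries on the left of each panel and vehicle libraries on the right. Points are libraries, numbered 1 to 4, and the bar beside them is the mean ± SD (n = 4); Eid2b, Spc25, Ccnb1, Col6a3, Adam12, Adrb3, Cfd and Gpx4 do not overlap between groups, whereas Adgre1 and Lep do.

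Genes of cell division were lower with auranofin as a group. Of 60 listed genes, 52 passed the filter on mean FPKM, and 49 of these had a log2 change below 0, against 49.6% of all genes tested. The median change was -0.53, against 0.00 over all genes. An unadjusted p under 0.05 in the lower direction was reached by 34 of the 52 (65.4%, against 6.13% of all genes), and in 23 (44.2%, against 3.95%) every auranofin library lay below every vehicle library. None passed over all genes. A low member such as Ect2, under 0.5 FPKM in every auranofin library, passed the filter only through its vehicle values. Members of this kind can raise these shares. With the 8 members under the filter added, 57 of 60 were below 0. The mean log2 level of the list was 1.28, 0.98, 1.48 and 1.43 in the auranofin libraries, against 2.17, 1.85, 1.58 and 1.6 in the vehicle libraries. The 4 auranofin libraries all lay below vehicle libraries 3 and 4, which were themselves below vehicle libraries 1 and 2, and auranofin library 2 was lowest. Without vehicle libraries 1 and 2, 43 of the 46 members tested stayed below 0 with a median of -0.31, and 5 had an unadjusted p under 0.05 in the lower direction (1.21% of all genes did). With a pseudocount of 0.1 the median was -0.87, on the TPM scale -0.90 and with voom on rebuilt reads -0.94.

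The 4 members with the smallest p act at the kinetochore, at entry into mitosis and in the final split of the cell. Spc25, a subunit of the NDC80 complex that ties microtubules to kinetochores, had 2.2, 0.738, 1.6 and 1.71 FPKM in the auranofin libraries, against 4.34, 5.94, 3.01 and 3.11 FPKM in the vehicle libraries. Its log2 change was -0.99 ± 0.23 (SE) (unadjusted p = 0.00215), and -0.70 without vehicle libraries 1 and 2. The highest auranofin library stayed below the lowest vehicle library. Ccnb1, cyclin B1, the partner of Cdk1 that starts mitosis, had 0.555, 0.38, 0.762 and 0.873 FPKM in the auranofin libraries, against 2.76, 1.62, 1.22 and 1.51 FPKM in the vehicle libraries. This was a log2 change of -0.74 ± 0.18 (SE) (unadjusted p = 0.0028), or -0.53 without those libraries. Melk, a mitotic kinase, had 0.476, 0.118, 0.519 and 0.549 FPKM in the auranofin libraries, against 2.2, 1.7, 0.911 and 1.01 FPKM in the vehicle libraries, and its change was -0.77 ± 0.20 (SE), or -0.48 without them. Ect2, the exchange factor that sets off the contractile ring, had 0.344, 0.13, 0.229 and 0.398 FPKM in the auranofin libraries, against 1.19, 1.06, 0.671 and 0.59 FPKM in the vehicle libraries, with a change of -0.55 ± 0.15 (SE), and was under the filter without those libraries. Groups did not overlap for any of the 4. The reads behind these values were few: Spc25 rested on 129, 47, 116 and 117 reads in the auranofin libraries and 332, 394, 223 and 212 reads in the vehicle libraries, and Ect2 on 14 to 46 and 68 to 154 reads.

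Promoters of these 4 genes are shown because nearly all of the list lay below 0 and because cell cycle promoters are known for 2 short elements, the CCAAT box and the cell cycle homology region (TTTGAA or TTCGAA). The windows run from 250 bases before to 50 bases after the RefSeq gene start on build GRCm38.p6, the first window listed for each gene, 5′ to 3′ on the gene's strand, and capitals mark either element.
Spc25 (chr2:69206164-69206463, minus strand): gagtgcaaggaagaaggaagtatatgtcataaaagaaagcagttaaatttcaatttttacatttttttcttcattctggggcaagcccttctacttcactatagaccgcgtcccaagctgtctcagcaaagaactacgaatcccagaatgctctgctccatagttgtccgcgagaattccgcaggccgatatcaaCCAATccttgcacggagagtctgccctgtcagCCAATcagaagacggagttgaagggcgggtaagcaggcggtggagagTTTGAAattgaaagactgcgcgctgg
Ccnb1 (chr13:100786437-100786736, minus strand): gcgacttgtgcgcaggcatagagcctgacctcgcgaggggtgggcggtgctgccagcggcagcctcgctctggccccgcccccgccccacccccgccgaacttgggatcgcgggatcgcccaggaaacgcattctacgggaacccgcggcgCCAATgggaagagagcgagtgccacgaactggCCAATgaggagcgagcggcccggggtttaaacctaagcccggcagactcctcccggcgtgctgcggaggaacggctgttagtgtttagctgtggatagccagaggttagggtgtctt
Ect2 (chr3:27153829-27154128, minus strand): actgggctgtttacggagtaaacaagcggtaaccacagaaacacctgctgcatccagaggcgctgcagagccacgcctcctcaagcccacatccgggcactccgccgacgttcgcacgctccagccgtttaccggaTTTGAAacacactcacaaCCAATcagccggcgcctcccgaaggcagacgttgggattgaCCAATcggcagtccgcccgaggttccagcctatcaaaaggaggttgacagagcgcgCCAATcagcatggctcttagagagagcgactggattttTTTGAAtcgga
Melk (chr4:44300667-44300966, plus strand): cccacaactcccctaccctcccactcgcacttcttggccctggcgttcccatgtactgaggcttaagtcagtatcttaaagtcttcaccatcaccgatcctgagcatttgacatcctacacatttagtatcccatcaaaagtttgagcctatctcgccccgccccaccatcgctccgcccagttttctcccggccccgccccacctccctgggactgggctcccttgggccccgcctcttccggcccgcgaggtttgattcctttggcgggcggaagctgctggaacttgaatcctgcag
The Spc25 window held 2 CCAAT boxes 32 bases apart and 1 TTTGAA. The Ccnb1 window held 2 CCAAT boxes, also 32 bases apart, and the Ect2 window 3 CCAAT boxes and 2 TTTGAA. Neither element, on either strand, was in the Melk window. Of the 49 cell division genes with a window, 75.5% held CCAAT on either strand, against 38.5% of the 9932 genes tested in eWAT that had one. TTTGAA or TTCGAA was in 61.2% of these 49 windows, against 14% of all tested genes' windows, and both elements were in 55.1%, against 5.96%. TGANTCA, the site of AP-1 factors, was in 0 of the 49 and in 5.12% of the 9932. The 49 were taken whether or not the gene passed the filter or was lower, so these shares describe the choice of list and not auranofin. These are matches of letters and say nothing on binding in these samples.

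**Figure D2:**
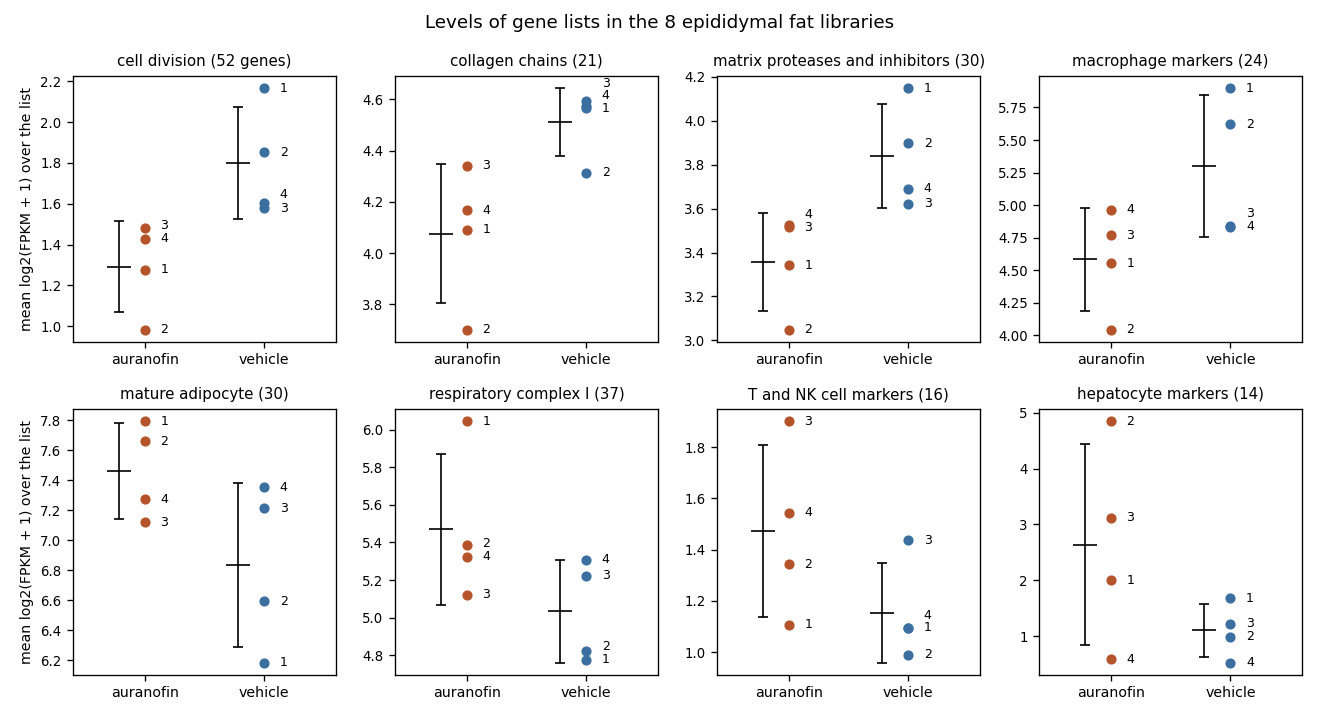
Mean log2(FPKM + 1) over the tested members of 8 lists, with auranofin libraries on the left of each panel and vehicle libraries on the right; points are libraries numbered 1 to 4 and bars are mean ± SD (n = 4). For cell division genes and for matrix proteases with their inhibitors all auranofin libraries lie below all vehicle libraries, for macrophage markers vehicle libraries 1 and 2 lie above the other 6, and hepatocyte markers are highest in auranofin library 2 at 4.85.

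Dividing cells in obese fat include macrophages, whose markers differed in level too. The 24 macrophage markers summed to 1018 to 2628 FPKM in auranofin libraries and 2127 to 5571 FPKM in vehicle libraries, with no marker at 0 in all libraries. Vehicle libraries 3 and 4 were within the auranofin range for this sum (2127 and 2252 FPKM) but above it for the cell division list. The part of macrophage content in the lower cell division levels was not tested. In bulk tissue, fewer cells of a type and less RNA per cell cannot be told apart.

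Genes of the extracellular matrix were mostly lower with auranofin. Collagen chains form the fibrils and basement membranes around adipocytes, and of 26 listed, 21 were tested. Of these, 17 were below 0 with a median of -0.33, 10 had an unadjusted p under 0.05 in the lower direction (47.6%, against 6.13% of all genes) and 5 did not overlap (23.8%, against 3.95%). Without vehicle libraries 1 and 2 all 21 were below 0, with a median of -0.49, against 52.5% and -0.01 over all genes. Unadjusted p was under 0.05 in the lower direction for 6 of the 21, against 1.21% of all genes. The change of this list was thus as large without the libraries that stood apart. The median was -0.64 with a pseudocount of 0.1 and -0.68 on the TPM scale. Its mean log2 level was 4.09, 3.7, 4.34 and 4.17 in the auranofin libraries, against 4.56, 4.31, 4.59 and 4.57 in the vehicle libraries, so that auranofin library 3 lay just above vehicle library 2 and the other 3 auranofin libraries below all vehicle libraries.

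Col6a3, a chain of the microfibrillar collagen VI whose fragment endotrophin is known from obese fat, had 13.7, 7.43, 12.8 and 14.1 FPKM in the auranofin libraries, against 24.8, 24.6, 21.5 and 21.3 FPKM in the vehicle libraries. Its log2 change was -0.92 ± 0.20 (SE) (unadjusted p = 0.00127), and -0.82 without vehicle libraries 1 and 2. The vehicle libraries lay within 21.3 to 24.8 FPKM, including the 2 that stood apart elsewhere, and all auranofin libraries were under them. Col3a1, the fibrillar chain of collagen III, had 63.3, 35.2, 85.4 and 73.9 FPKM in the auranofin libraries, against 288, 148, 112 and 113 FPKM in the vehicle libraries, a change of -1.3 ± 0.37 (SE), or -0.87 without those libraries. The collagen V chain Col5a2 averaged 14.3 ± 4.26 FPKM in auranofin libraries and 25 ± 4.02 FPKM in vehicle libraries, and its change of -0.80 was -0.64 without them. Col1a2, a chain of collagen I, averaged 34.4 ± 8.63 FPKM in auranofin libraries and 59.4 ± 12.7 FPKM in vehicle libraries, with changes of -0.78 and -0.54. Of the basement membrane chains, Col4a1 had 159.7, 99.1, 143 and 127 FPKM in the auranofin libraries, against 130.4, 119.95, 192 and 192 FPKM in the vehicle libraries, and its groups overlapped.

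Matrix proteases and their inhibitors remodel this collagen. Of 31 listed genes 30 were tested, 24 were below 0, 16 had an unadjusted p under 0.05 in the lower direction (53.3%, against 6.13% of all genes) and 11 did not overlap (36.7%, against 3.95%). The median was -0.57 with all libraries and -0.29 without vehicle libraries 1 and 2, where 24 of 29 were below 0 and 5 had an unadjusted p under 0.05 in that direction (1.21% of all genes did). Mmp14, the membrane protease that cleaves collagen and activates other proteases, had 9.55, 10.7, 12.7 and 10.7 FPKM in the auranofin libraries, against 22.9, 18, 17 and 15.1 FPKM in the vehicle libraries, a change of -0.68 ± 0.16 (SE) (unadjusted p = 0.002), or -0.52 without them. Its auranofin libraries all lay below its vehicle libraries. Mmp19, a secreted metalloprotease, averaged 16.3 ± 2 FPKM in auranofin libraries and 30.9 ± 10.04 FPKM in vehicle libraries, with log2 changes of -0.83 and -0.43. Timp4, a metalloprotease inhibitor made by adipocytes, ran the other way, at 68.7, 102, 56.6 and 49.3 FPKM in the auranofin libraries, against 9.55, 11.4, 34.1 and 40.2 FPKM in the vehicle libraries. The log2 change was 1.7 ± 0.46 (SE), and 0.83 without vehicle libraries 1 and 2, which held the lowest values.

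Of 44 matrix glycoproteins and proteoglycans tested, 34 were below 0 with a median of -0.26, and 35 with a median of -0.25 without vehicle libraries 1 and 2. Unadjusted p was under 0.05 in the lower direction for 16 of them (36.4%, against 6.13% of all genes), and for 6 without those libraries, where 1.21% of all genes reached it. Fbn1, fibrillin-1 of elastic microfibrils, had 7.87, 6.24, 11.9 and 9.79 FPKM in the auranofin libraries, against 26.3, 23.2, 15.2 and 14.4 FPKM in the vehicle libraries, a change of -1.05 ± 0.25 (SE), or -0.70 without them. Lumican (Lum), a collagen-binding proteoglycan, had 49.7, 24.7, 36.4 and 45.4 FPKM in the auranofin libraries, against 192, 181, 57.1 and 65.8 FPKM in the vehicle libraries, and its groups did not overlap. The change of -1.48 ± 0.43 (SE) leaned on vehicle libraries 1 and 2 and was -0.68 without them. Tenascin C (Tnc) averaged 1.36 ± 0.235 FPKM in auranofin libraries and 2.06 ± 0.154 FPKM in vehicle libraries, with changes of -0.38 and -0.40, and cartilage oligomeric matrix protein (Comp) averaged 0.593 ± 0.313 FPKM in auranofin libraries and 1.55 ± 0.499 FPKM in vehicle libraries, with -0.68 and -0.80. Among 24 genes of collagen processing, 17 were below 0 with a median of -0.18, and 19 with a median of -0.17 without vehicle libraries 1 and 2. The cross-linking oxidase Loxl2 averaged 4.31 ± 1.04 FPKM in auranofin libraries and 10.2 ± 4.45 FPKM in vehicle libraries (log2 changes -1.0 and -0.49), the lysyl hydroxylase Plod2 averaged 2.42 ± 0.217 FPKM in auranofin libraries and 4.21 ± 1.64 FPKM in vehicle libraries (-0.56 and -0.19), and P3h4, a partner of a prolyl and lysyl hydroxylase complex, was higher at 6.6 ± 0.925 FPKM in auranofin libraries and 4.24 ± 1.36 FPKM in vehicle libraries (0.57 and 0.34). Markers of fibro-adipogenic progenitors, the stromal cells that make much of this matrix, had a median of -0.21 (15 of 19 below 0) and -0.19 without vehicle libraries 1 and 2. The progenitor markers Pdgfra and Fap had log2 changes of -0.53 and -0.53, or -0.19 and -0.21 without those libraries. Their part in the matrix levels was not tested.

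Growth factors of the TGF-beta family signal to these cells. Of 35 genes of TGF-beta, activin and BMP signalling, 18 were above and 17 below 0, with a median of 0.02 (-0.14 on the TPM scale). The split was 13 above and 22 below 0, with a median of -0.05, without vehicle libraries 1 and 2. Bmp4, which commits precursors to the adipocyte lineage, averaged 5.15 ± 1.89 FPKM in auranofin libraries and 2.33 ± 1.07 FPKM in vehicle libraries (log2 changes 0.88 and 0.48 without vehicle libraries 1 and 2). The receptor gene Tgfbr1 averaged 4.57 ± 0.972 FPKM in auranofin libraries and 8.38 ± 3.44 FPKM in vehicle libraries (-0.69 and -0.23), and the activin antagonist Fst averaged 2.91 ± 0.925 FPKM in auranofin libraries and 4.67 ± 1.38 FPKM in vehicle libraries (-0.54 and -0.26). Groups overlapped for all 3.

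Macrophage genes were lower on average, but the size of this depended on vehicle libraries 1 and 2. Of 24 macrophage markers 21 were below 0 with a median of -0.81. An unadjusted p under 0.05 in the lower direction was reached by 11 (45.8%, against 6.13% of all genes). The groups overlapped for each of the 24, where 3.95% of all genes were lower without overlap. Without vehicle libraries 1 and 2, 23 of 24 stayed below 0, but the median was -0.20. None then had an unadjusted p under 0.05, where 1.21% of all genes did in the lower direction. Adgre1, the macrophage surface protein F4/80, had 40.2, 21.7, 39.1 and 65.2 FPKM in the auranofin libraries, against 106, 83.1, 54 and 52.8 FPKM in the vehicle libraries. Its log2 change was -0.85 ± 0.35 (SE), and -0.45 without them. The highest auranofin library lay above vehicle libraries 3 and 4. Itgax, the integrin CD11c of inflammatory macrophages, had 14.8, 5.37, 28.7 and 27.4 FPKM in the auranofin libraries, against 67.3, 62.3, 24.6 and 33.6 FPKM in the vehicle libraries, a change of -1.38 ± 0.52 (SE), or -0.80 without those libraries. For the integrin CD11b gene Itgam the changes were -1.01 and -0.34, and for the receptor gene Cd84 -1.34 and -0.54.

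Genes of lipid-associated macrophages, the cells that take up lipid from dying adipocytes, had a median of -0.67 with 22 of 29 below 0, and -0.33 without vehicle libraries 1 and 2. Lysosomal acid lipase (Lipa), which frees stored cholesterol and fatty acids, had 70.05, 37.8, 78.5 and 94.8 FPKM in the auranofin libraries, against 225, 287, 89.9 and 102 FPKM in the vehicle libraries, a change of -1.22 ± 0.43 (SE), or -0.52 without them. Atp6v0d2, a macrophage subunit of the lysosomal proton pump, had 26.8, 5.88, 31.5 and 36.7 FPKM in the auranofin libraries, against 111, 168, 33.5 and 44.7 FPKM in the vehicle libraries, with changes of -1.75 ± 0.65 (SE) and -0.85. In both genes vehicle libraries 1 and 2 were far above the other 6, and auranofin library 2 was lowest. Another proton pump subunit, Atp6v1a, averaged 19.97 ± 3.67 FPKM in auranofin libraries and 34.5 ± 10.6 FPKM in vehicle libraries with non-overlapping groups, and changes of -0.73 and -0.35. Apolipoprotein E (Apoe) and Apoc1, lipoprotein genes that adipocytes express too, ran the other way. Apoe had 2010, 1781, 1347 and 1298 FPKM in the auranofin libraries, against 759, 646, 994 and 1039 FPKM in the vehicle libraries, with changes of 0.91 ± 0.27 (SE) and 0.64, and Apoc1 had changes of 0.98 and 0.52.

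Most inflammatory messengers had log2 changes below 0 as well. Of 30 genes of innate cytokines and receptors 25 were below 0 with a median of -0.23, and of 30 chemokines and receptors 24 with a median of -0.19. These medians were -0.08 and -0.03 without vehicle libraries 1 and 2. Il1rn, the antagonist of the interleukin 1 receptor, had 2.1, 0.488, 2.73 and 3.68 FPKM in the auranofin libraries, against 16.9, 11.1, 3.82 and 4.32 FPKM in the vehicle libraries, a change of -1.53 ± 0.48 (SE), or -0.76 without them. Its groups did not overlap. The interleukin 33 receptor gene Il1rl1 averaged 0.971 ± 0.345 FPKM in auranofin libraries and 3.31 ± 2.42 FPKM in vehicle libraries (-1.0 and -0.48). Ccl2, the chemokine that draws monocytes, had 21.8, 4.35, 12 and 18.3 FPKM in the auranofin libraries, against 60.7, 21.4, 23.3 and 22 FPKM in the vehicle libraries, with changes of -1.16 ± 0.49 (SE) and -0.84. The chemokine receptors Cxcr3 and Cxcr6 of activated lymphocytes were higher, with changes of 0.77 and 0.53, or 0.45 and 0.52 without those libraries, although Cxcr6 lies within Fyco1 on the other strand. The complement receptor gene C3ar1 had changes of -1.29 and -0.51, and complement factor C2 had 0.79 and 0.69. Interferon-inducible genes had a median of -0.09, with 13 above and 19 below 0, and MHC class II genes one of 0.02 (-0.14 on the TPM scale), or -0.01 and 0.02 without those libraries.

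T and NK cell markers went against the myeloid ones, at low levels. Of 16 tested, 14 were above 0 with a median of 0.32, and without vehicle libraries 1 and 2 all 15 tested were above 0 with a median of 0.21. Gzma, granzyme A of cytotoxic cells, had 1.19, 2.09, 1.71 and 1.44 FPKM in the auranofin libraries, against 0.414, 0.526, 1.15 and 1.02 FPKM in the vehicle libraries. Its change was 0.56 ± 0.18 (SE), or 0.31 without them, and the groups did not overlap. Cd3d, a subunit of the T cell receptor complex, had 1.17, 1.13, 1.89 and 1.44 FPKM in the auranofin libraries, against 0.688, 0.291, 1.18 and 0.617 FPKM in the vehicle libraries, and Nkg7 of cytotoxic granules averaged 4.59 ± 1.08 FPKM in auranofin libraries and 2.59 ± 1.48 FPKM in vehicle libraries. Their changes were 0.52 and 0.73, or 0.35 and 0.36 without those libraries. Mast cell genes were highest in vehicle library 2. Mcpt4, a mast cell protease, had 25.6, 8.54, 14 and 26.1 FPKM in the auranofin libraries, against 67.7, 209, 21.1 and 35.4 FPKM in the vehicle libraries, and the tryptase gene Tpsb2 had 28, 10.2, 19.96 and 30.8 FPKM in the auranofin libraries, against 67, 171, 25.6 and 47.7 FPKM in the vehicle libraries. Their changes of -1.7 and -1.53 were -0.66 and -0.74 without vehicle libraries 1 and 2. The neutrophil alarmin gene S100a8 averaged 7.06 ± 3.94 FPKM in auranofin libraries and 15.4 ± 5.7 FPKM in vehicle libraries (log2 changes -1.08 and -1.0), and Elane, neutrophil elastase, was higher at 0.892 ± 0.409 FPKM in auranofin libraries and 0.256 ± 0.156 FPKM in vehicle libraries (0.57 and 0.58).

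**Figure D3:**
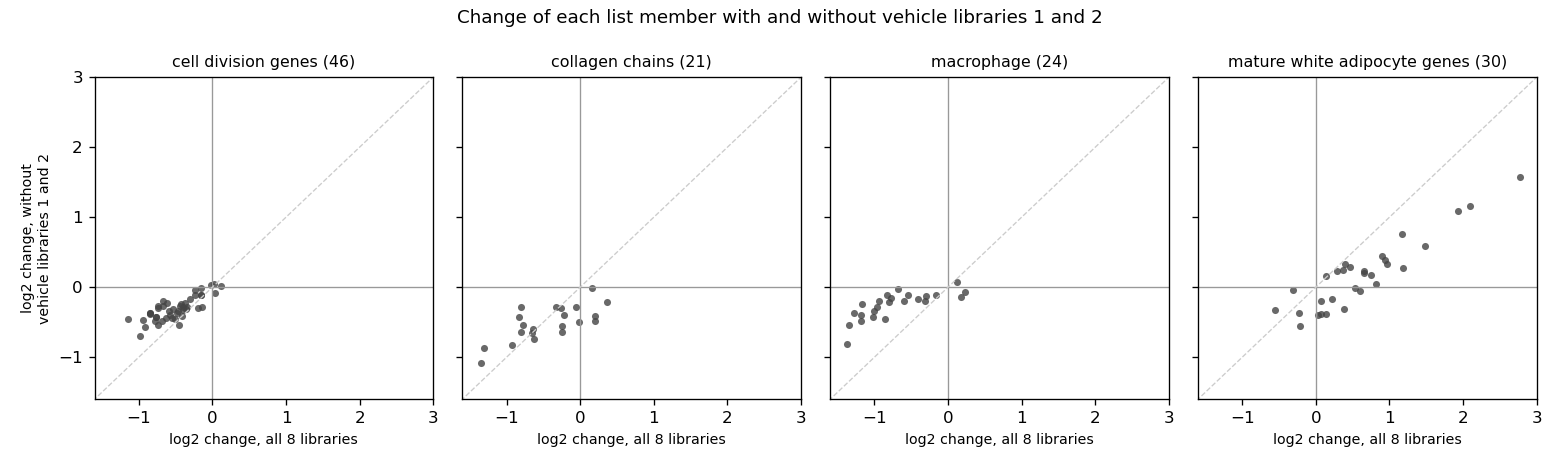
Log2 change (auranofin minus vehicle, log2(FPKM + 1) scale) of each member of 4 lists with all 8 libraries (x axis) and without vehicle libraries 1 and 2 (y axis); points are genes and the dashed line marks equal changes. Collagen chains lie below 0 on the y axis in all 21 cases, macrophage markers have a median of -0.81 on the x axis and -0.20 on the y axis, and adipocyte genes have a median of 0.49 on the x axis and 0.19 on the y axis.

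Genes of mature white adipocytes were higher with auranofin on average. Of 30 tested, 26 were above 0 (50.4% of all genes were) with a median of 0.49, 10 had an unadjusted p under 0.05 (33.3%, against 5.32%) and 4 did not overlap (13.3%, against 3%). Leaving out vehicle libraries 1 and 2, 18 of 30 were above 0 with a median of 0.19, and 1 had an unadjusted p under 0.05, against 1.03% of all genes. The mean log2 level of the list was 7.79, 7.66, 7.12 and 7.27 in the auranofin libraries, against 6.19, 6.59, 7.21 and 7.35 in the vehicle libraries. Auranofin libraries 1 and 2 were highest and vehicle libraries 1 and 2 lowest, with the other 4 between them.

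Adrb3, the beta-3 adrenergic receptor that starts lipolysis in mouse adipocytes (chr8:27225776-27250616), had 71.3, 131, 72.2 and 65.2 FPKM in the auranofin libraries, against 14.5, 5.75, 26.4 and 48.4 FPKM in the vehicle libraries. Its log2 change was 2.09 ± 0.54 (SE) (unadjusted p = 0.00384), or 1.16 without vehicle libraries 1 and 2. Every auranofin library exceeded every vehicle library, and auranofin library 2 was highest. Cfd, adipsin or complement factor D, a serine protease secreted by adipocytes, had 1227, 5309, 1188 and 865 FPKM in the auranofin libraries, against 95.9, 106, 495 and 584 FPKM in the vehicle libraries. This was the highest change of all genes tested, 2.78 ± 0.76 (SE), or 1.58 without those libraries, with auranofin library 2 far above the rest. Resistin (Retn), an adipocyte hormone of mice, had 529.6, 442, 264 and 276 FPKM in the auranofin libraries, against 98.6, 146, 203 and 225 FPKM in the vehicle libraries, a change of 1.17 ± 0.34 (SE), or 0.75 without them. Pck1, which feeds glycerol synthesis for triglyceride, had 317, 642, 298 and 212 FPKM in the auranofin libraries, against 39.3, 59.2, 118 and 212 FPKM in the vehicle libraries, with changes of 1.93 ± 0.53 (SE) and 1.09. Nnat, neuronatin, which adipocytes express, had 673, 755, 481 and 425 FPKM in the auranofin libraries, against 72, 42.7, 229.6 and 371 FPKM in the vehicle libraries, with changes of 2.14 ± 0.62 (SE) and 0.96. It lies within Blcap on the other strand. The insulin-responsive glucose transporter gene Slc2a4 had 46.7, 63.8, 31.1 and 31.7 FPKM in the auranofin libraries, against 7.28, 7.09, 25.7 and 28.6 FPKM in the vehicle libraries. Its changes were 1.48 ± 0.48 (SE) and 0.59, and the groups did not overlap, although auranofin library 3 exceeded vehicle library 4 by little.

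Lep, the leptin gene that the series title turns on, had 1146, 294, 605 and 612 FPKM in the auranofin libraries, against 445, 661, 886 and 865 FPKM in the vehicle libraries. The highest and the lowest of the 8 values were both auranofin libraries. Its log2 change was -0.21 ± 0.42 (SE) with an adjusted p of 0.801 in limma, and -0.56 without vehicle libraries 1 and 2. Without auranofin library 2 it was 0.12, so its sign rested on that library. Adipoq averaged 2109 ± 695 FPKM in auranofin libraries and 1158 ± 428 FPKM in vehicle libraries, a change of 0.89 ± 0.38 (SE) (unadjusted p = 0.0431), or 0.45 without those libraries. Of 20 other adipokine genes, Adipoq, Cfd, Retn and Nnat included, 12 were above and 8 below 0 with a median of 0.19, or 0.06 with the same split without vehicle libraries 1 and 2.

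Genes of lipid handling were mostly above 0 too, but close to it without vehicle libraries 1 and 2. Lipolysis genes had a median of 0.31 with 19 of 28 above 0, and -0.01 without those libraries. The lipase genes Pnpla2 and Lipe, which release fatty acids in sequence, were measured too: Pnpla2 averaged 502 ± 167 FPKM in auranofin libraries and 269 ± 119 FPKM in vehicle libraries, and Lipe averaged 207 ± 52.3 FPKM in auranofin libraries and 114 ± 55 FPKM in vehicle libraries. Their changes of 0.94 and 0.97 were 0.38 and 0.33 without them, and groups overlapped. Adrb1, the beta-1 receptor, had changes of 0.61 and 0.21. Genes of fatty acid and triglyceride synthesis had a median of 0.16 (21 of 28 above 0), or -0.02 without them. The desaturase gene Scd1 had 5248, 5203, 3892 and 2511 FPKM in the auranofin libraries, against 1032, 2288, 1949 and 2671 FPKM in the vehicle libraries, and changes of 1.11 ± 0.39 (SE) and 0.82. Thrsp, a lipogenic regulator, averaged 207 ± 69.6 FPKM in auranofin libraries and 107 ± 38.5 FPKM in vehicle libraries with non-overlapping groups (log2 changes 0.95 and 0.50), and Dgat1, which makes triglyceride, averaged 62.4 ± 12.6 FPKM in auranofin libraries and 40.5 ± 14.5 FPKM in vehicle libraries (0.66 and 0.22). In the insulin and glucose list 20 of 29 were above 0 with a median of 0.08 (-0.07 on the TPM scale), or -0.02 with 14 of 29 without those libraries, among them the insulin receptor substrate Irs3 (0.87 and 0.51) and the glycolytic enzyme Pfkm (0.43 and 0.25). Of 23 transcription factors of adipocytes 21 were above 0 with a median of 0.24, or 0.05 without vehicle libraries 1 and 2. Klf15, a glucocorticoid-responsive factor, and Cebpa, a driver of adipocyte maturation, had changes of 1.17 and 1.19, or 0.45 and 0.27 without them.

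Nuclear genes of the respiratory chain were slightly higher in most cases. Of 37 subunits of complex I 35 were above 0 with a median of 0.43, and 35 with a median of 0.20 without vehicle libraries 1 and 2. Of 42 nuclear subunits of complexes II to V 38 were above 0 in both cases, with medians of 0.38 and 0.17. An unadjusted p under 0.05 in the higher direction was reached by 8 of complex I (21.6%) and 4 of the others (9.52%) with all libraries, against 5.32% of all genes. Without vehicle libraries 1 and 2 none reached it, where only 1.03% of all genes did. Ndufs7, a core subunit of complex I, had 75.8, 62.1, 42.7 and 49 FPKM in the auranofin libraries, against 26.8, 17.5, 42.6 and 45.8 FPKM in the vehicle libraries, with changes of 0.83 ± 0.32 (SE) and 0.34. Cox8a, of cytochrome c oxidase, had 983, 669, 538 and 617 FPKM in the auranofin libraries, against 240.1, 138, 511 and 578 FPKM in the vehicle libraries, with changes of 1.12 ± 0.46 (SE) and 0.33. Auranofin library 1 was highest and vehicle library 2 lowest in both. These transcripts are short, and protein-coding genes up to 1000 bases long had a median change of 0.30 while those over 6000 bases had -0.09, or 0.16 and -0.04 without vehicle libraries 1 and 2; the part of gene length in the result was not tested. Transcripts of the mitochondrial genome itself had a median of -0.04, with 3 of 13 above 0, and 0.15 without those libraries. mt-Nd1, a complex I subunit made in mitochondria, had 3909, 2760, 2051 and 2659 FPKM in the auranofin libraries, against 3110, 5873, 3041 and 3046 FPKM in the vehicle libraries, highest in vehicle library 2.

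Other mitochondrial pathways had medians above 0 with all libraries. Fatty acid oxidation genes had a median of 0.35, and 0.04 without vehicle libraries 1 and 2. Cpt1a, the liver-type enzyme that admits fatty acids to mitochondria, went against its list, at 26.9, 23.6, 28.1 and 28.3 FPKM in the auranofin libraries, against 37.3, 46.4, 33.6 and 34.4 FPKM in the vehicle libraries. Its change was -0.48 ± 0.15 (SE), or -0.34 without those libraries, and the groups did not overlap. Citrate cycle and branched-chain amino acid genes had a median of 0.27 (33 of 37 above 0), or 0.08 without them. Bcat2 and Ivd, enzymes of branched-chain amino acid breakdown, had changes of 0.97 and 0.86, or 0.48 and 0.32. Thermogenic genes had a median of 0.13 with 9 of 14 above 0, and -0.06 with 5 of 14 without vehicle libraries 1 and 2. An unadjusted p under 0.05 was reached by 2 of the 14, both lower (14.3%, against 6.13% of all genes) and with non-overlapping groups (14.3%, against 3.95%). Glycerol kinase (Gk) averaged 1.22 ± 0.302 FPKM in auranofin libraries and 2.29 ± 0.31 FPKM in vehicle libraries. Gatm, which starts creatine synthesis, averaged 3.12 ± 0.947 FPKM in auranofin libraries and 6.11 ± 1.99 FPKM in vehicle libraries. Their changes of -0.57 and -0.78 were -0.46 and -0.43 without vehicle libraries 1 and 2.

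The drug's known target is thioredoxin reductase. Txnrd1, its cytosolic form, had 9.98, 10.2, 11.5 and 9.98 FPKM in the auranofin libraries, against 15.7, 13.3, 10.4 and 11.5 FPKM in the vehicle libraries. Its change was -0.25 ± 0.15 (SE) with an adjusted p of 0.447, or -0.07 without vehicle libraries 1 and 2. The auranofin libraries were within 9.98 to 11.5 FPKM, and vehicle libraries 1 and 2 above them. The 26 genes of the thioredoxin system and peroxiredoxins had a median of 0.10 with 17 above 0, and -0.03 on the TPM scale (-0.14 over all genes). An unadjusted p under 0.05 in the higher direction was reached by 3 (11.5%, against 5.32% of all genes). Txnip, the inhibitor of thioredoxin that senses glucose, had 349.9, 465, 357 and 336 FPKM in the auranofin libraries, against 215, 271, 275 and 323 FPKM in the vehicle libraries, with changes of 0.48 ± 0.21 (SE) and 0.32. Its groups did not overlap. Superoxide dismutase 1 (Sod1), Glrx5 and Prdx5, genes for antioxidant or iron-sulphur cluster proteins, had changes of 0.63, 0.82 and 0.67, or 0.38, 0.19 and 0.22 without those libraries.

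Of 21 selenoprotein and selenium genes 13 were above 0 with a median of 0.15, or 0.08 without vehicle libraries 1 and 2. An unadjusted p under 0.05 in the higher direction was reached by 3 (14.3%, against 5.32% of all genes). Without those libraries none reached it, where only 1.03% of all genes did. In 4 of the 21 (19%, against 3%) every auranofin library was above every vehicle library. Gpx4, the peroxidase that protects membrane lipids, had 741, 416, 328 and 337 FPKM in the auranofin libraries, against 226, 107, 273 and 296 FPKM in the vehicle libraries, a change of 1.03 ± 0.39 (SE) (unadjusted p = 0.0256), or 0.59 without those libraries. Gpx3, the peroxidase secreted to plasma, had 215, 412, 203 and 211 FPKM in the auranofin libraries, against 189, 155, 143 and 152 FPKM in the vehicle libraries, and its change of 0.64 ± 0.26 (SE) was 0.75 without them. Its vehicle libraries lay within 143 to 189 FPKM. Selenow, a small selenoprotein, averaged 669 ± 221 FPKM in auranofin libraries and 383 ± 120.1 FPKM in vehicle libraries, with changes of 0.81 and 0.41.

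Of 31 genes of NRF2 and its classical targets 19 were above 0. Their median was 0.13, or 0.11 without vehicle libraries 1 and 2, and -0.02 on the TPM scale (-0.14 over all genes). In the higher direction 5 had an unadjusted p under 0.05 (16.1%, against 5.32% of all genes) and 4 did not overlap (12.9%, against 3%), and in the lower direction 2 had that p (6.45%, against 6.13%). Without those libraries 3 of 31 had it in the higher direction, where 1.03% of all genes did. The members with the smallest p were glutathione transferases. Gsta4, which clears the lipid aldehyde 4-hydroxynonenal, had 16.3, 18.2, 8.49 and 10.04 FPKM in the auranofin libraries, against 1.91, 6.23, 6.83 and 7.19 FPKM in the vehicle libraries, with changes of 1.17 ± 0.36 (SE) and 0.77. Gstm1 had 332, 428, 371 and 237 FPKM in the auranofin libraries, against 181, 169.7, 183 and 225 FPKM in the vehicle libraries, with changes of 0.82 ± 0.23 (SE) and 0.72, and Gsta3 averaged 21.6 ± 7.56 FPKM in auranofin libraries and 9.61 ± 3.33 FPKM in vehicle libraries (log2 changes 1.1 and 0.76). The groups did not overlap for these 3, but each has close paralogs, so their values are uncertain. Nqo1, a quinone reductase often read as the measure of NRF2 activity, had 5.19, 3.93, 2.24 and 3.51 FPKM in the auranofin libraries, against 3.24, 2.57, 2.8 and 3.01 FPKM in the vehicle libraries. Its groups overlapped, with a change of 0.24 ± 0.19 (SE) and an adjusted p of 0.534. Metallothioneins bind gold as well as zinc, and zinc transporters stand beside them in a list with a median of -0.27, or -0.11 without vehicle libraries 1 and 2, 10 of 11 being below 0 in both cases. Mt1 averaged 127 ± 23.9 FPKM in auranofin libraries and 136 ± 34.4 FPKM in vehicle libraries and Mt2 averaged 1.72 ± 0.873 FPKM in auranofin libraries and 1.83 ± 1.06 FPKM in vehicle libraries, with adjusted p of 0.876 and 0.965. Their changes of -0.08 and -0.03 lay within the spread between libraries and turned above 0 when single libraries were left out. The zinc importer gene Slc39a10 and exporter gene Slc30a1 had changes of -0.45 and -0.28, or -0.14 and -0.18 without vehicle libraries 1 and 2.

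Heat-shock genes had a median of -0.09 with 10 of 23 above 0, and 0.07 with 14 of 23 above 0 without vehicle libraries 1 and 2. Hsf1, their transcription factor, averaged 4.38 ± 0.471 FPKM in auranofin libraries and 3.22 ± 0.704 FPKM in vehicle libraries with non-overlapping groups (log2 changes 0.36 and 0.22), and the small heat-shock protein gene Hspb1 averaged 116 ± 27.6 FPKM in auranofin libraries and 71.7 ± 36.7 FPKM in vehicle libraries (0.82 and 0.20). Genes of the unfolded protein and integrated stress responses had a median of -0.09 with 23 of 40 below 0, and -0.04 with 28 of 40 below 0 without those libraries. Atf3, a stress-induced factor, had 24.5, 5.28, 27.3 and 28.4 FPKM in the auranofin libraries, against 79.6, 57.3, 24.7 and 36.3 FPKM in the vehicle libraries, with changes of -1.27 ± 0.54 (SE) and -0.70. Mthfd2, of mitochondrial one-carbon metabolism, had changes of -0.46 and -0.36, and Phgdh, of serine synthesis, had 1.06 and 0.37. Genes of p53, senescence and apoptosis had a median of -0.12 with 16 of 26 below 0, and -0.12 with 21 of 26 below 0 without them. In that list Mdm2, the ligase that restrains p53, averaged 7.99 ± 1.21 FPKM in auranofin libraries and 12.1 ± 3.5 FPKM in vehicle libraries (log2 changes -0.51 and -0.18). Hypoxia and angiogenesis genes had a median of 0.07 (-0.07 on the TPM scale), or -0.03 without vehicle libraries 1 and 2, with Hif1a at -0.75 and -0.41, Bnip3 at 0.60 and 0.33, and Vegfb at 0.87 and 0.38. Cholesterol genes had a median of -0.27 (17 of 26 below 0), or -0.20 (22 of 26) without those libraries. Among them were the exporter Abcg1 at 18.1 ± 1.69 FPKM in auranofin libraries and 26.2 ± 5.97 FPKM in vehicle libraries (-0.49 and -0.21) and the synthesis enzyme Cyp51 at 6.01 ± 2.33 FPKM in auranofin libraries and 10.5 ± 3.57 FPKM in vehicle libraries (-0.73 and -0.51).

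The circadian clock list had a median of 0.21, and 0.03 without vehicle libraries 1 and 2, but its parts ran apart. Dbp, an output factor of the clock driven by CLOCK and BMAL1, had 3.15, 7.64, 6.28 and 7.14 FPKM in the auranofin libraries, against 1.1, 1.16, 2.86 and 3.35 FPKM in the vehicle libraries. Its change was 1.2 ± 0.31 (SE) (unadjusted p = 0.00385), or 0.73 without them, and it overlaps Sphk2 on the other strand. Nfil3, a repressor of the same sites as Dbp, had 4.11, 3.98, 3.98 and 3.72 FPKM in the auranofin libraries, against 9.43, 7.71, 6.15 and 4.79 FPKM in the vehicle libraries, with changes of -0.66 ± 0.18 (SE) and -0.38. Arntl, which encodes BMAL1, had 2.18, 1.33, 1.59 and 1.75 FPKM in the auranofin libraries, against 3.42, 3.27, 2.25 and 2.46 FPKM in the vehicle libraries, with changes of -0.50 ± 0.15 (SE) and -0.32. Nfil3 and Arntl were lower in every auranofin library than in any vehicle library. The hour at which tissue was taken is not in the labels, and its part in these values was not tested. Of 27 immediate-early genes 17 were below 0 with a median of -0.07, and 23 with a median of -0.22 without vehicle libraries 1 and 2. Egr2, an early growth response factor, had 2, 1.13, 4.07 and 3.47 FPKM in the auranofin libraries, against 9.42, 5.08, 4.48 and 4.55 FPKM in the vehicle libraries, with changes of -0.93 ± 0.31 (SE) and -0.67, and the AP-1 member Fosl2 had -0.33 and -0.32.

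**Figure D4:**
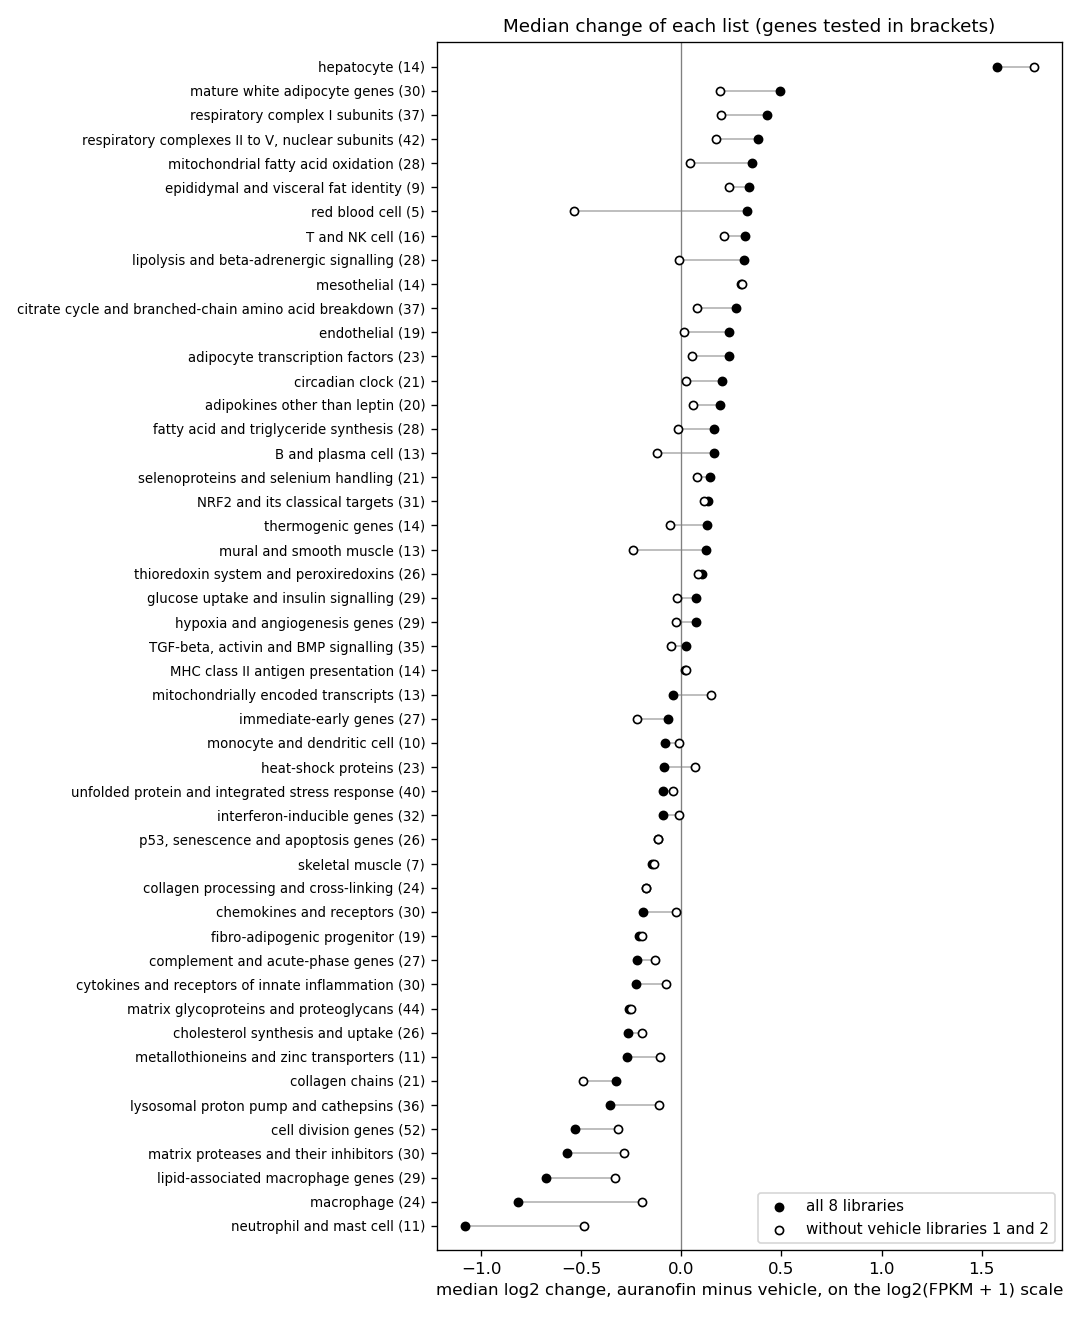
Median log2 change (auranofin minus vehicle, log2(FPKM + 1) scale) of each list with 5 or more tested members, with all 8 libraries (filled) and without vehicle libraries 1 and 2 (open); numbers in brackets are genes tested. Most lists move toward 0 without those libraries, while collagen chains lie at -0.33 with all libraries and -0.49 without those, and hepatocyte markers at 1.58 and 1.76.

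Hepatocyte transcripts were present in some eWAT libraries. The 15 listed markers summed to 10.2 to 815 FPKM in auranofin libraries and 8.4 to 62.9 FPKM in vehicle libraries, and none was at 0 in all libraries. Fgg, a fibrinogen chain, had 1.25, 21.4, 5.53 and 0.089 FPKM in the auranofin libraries, against 0.875, 0.276, 0.452 and 0.0892 FPKM in the vehicle libraries, and Ambp, a plasma protein precursor, had 1.97, 20.8, 5.94 and 0.165 FPKM in the auranofin libraries, against 1.27, 0.375, 0.397 and 0.298 FPKM in the vehicle libraries. The 14 tested had a median of 1.58 (1.76 without vehicle libraries 1 and 2), with auranofin libraries 2 and 3 highest and auranofin library 4 within the vehicle range. Genes that liver also makes, such as Apoe, Apoc1 and Gsta3, stand beside this, and its part in their levels was not tested. Genes of epididymis and testis were nearly absent, with 20 of 22 under the filter and 7 at 0 in all 8 libraries. Endothelial markers had a median of 0.24 (18 of 19 above 0), or 0.02 without vehicle libraries 1 and 2. Cldn5, a tight junction protein of vessels, had 107, 97.5, 127 and 106 FPKM in the auranofin libraries, against 29, 23.2, 82.9 and 108 FPKM in the vehicle libraries, and Gpihbp1, which holds lipoprotein lipase on capillaries, averaged 57.3 ± 6.25 FPKM in auranofin libraries and 35.4 ± 16.5 FPKM in vehicle libraries. Their changes of 1.12 and 0.79 were 0.20 and 0.20 without those libraries. Mesothelial markers had a median of 0.30 in both cases, with Nkain4 at 5.32, 6.79, 13.8 and 7.44 FPKM in the auranofin libraries, against 4.94, 3.88, 6.35 and 4.48 FPKM in the vehicle libraries. Red blood cell transcripts had a median of 0.33 over 5 genes, and -0.54 without vehicle libraries 1 and 2, and mural cell markers 0.12 and -0.24. Gpr1, a chemerin receptor gene in the list of visceral fat identity, had 1.29, 1.38, 0.97 and 1.19 FPKM in the auranofin libraries, against 0.45, 0.462, 0.689 and 0.73 FPKM in the vehicle libraries, with changes of 0.48 ± 0.12 (SE) and 0.37 and non-overlapping groups.

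Whether the change in eWAT differed from that in inguinal fat was tested as an interaction over 16 libraries. No gene of 13670 passed (0%; smallest adjusted p 0.177 in limma), but 1816 (13.3%) had an unadjusted p under 0.05 with a more positive change in eWAT and 1403 (10.3%) with a more negative one. Without auranofin library 2 of iWAT, 2036 genes passed, and without vehicle libraries 1 and 2 of eWAT, 2 did, so the count turned on single libraries. The iWAT libraries may come from the same mice as those of eWAT, which the labels do not say. Retn had a change of 1.17 in eWAT, while in iWAT it averaged 592 ± 242 FPKM in auranofin libraries and 1073 ± 178 FPKM in vehicle libraries. The difference of its changes was 2.08 ± 0.44 (SE) (unadjusted p = 0.000274), or 1.67 without vehicle libraries 1 and 2 of eWAT. For Eid2b the difference was 0.76 ± 0.15 (SE), with iWAT averages of 3.45 ± 0.595 FPKM in auranofin libraries and 3.92 ± 0.406 FPKM in vehicle libraries. Ndufaf6, an assembly factor of complex I, Lsm7, of the RNA-binding Lsm ring, and Rab3a, a vesicle GTPase that overlaps Mpv17l2, had differences of 0.98 ± 0.21 (SE), 1.12 ± 0.24 (SE) and 0.91 ± 0.20 (SE). In the other direction, Pdxk had a difference of -0.81 ± 0.18 (SE), with iWAT averages of 4.88 ± 0.919 FPKM in auranofin libraries and 3.82 ± 0.728 FPKM in vehicle libraries. Pcyt1a, the regulated enzyme of phosphatidylcholine synthesis, and Adam19, a membrane metalloprotease, had -0.69 ± 0.14 (SE) and -1.08 ± 0.23 (SE). Susd6 and Armcx3 had -0.73 ± 0.17 (SE) and -0.70 ± 0.16 (SE).

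Complex I genes had median changes of opposite sign in the white depots. All 37 complex I subunits had a more positive change in eWAT, with a median difference of 1.19, and 34 had an unadjusted p under 0.05 (91.9%, against 13.3% of all genes). Their median change was 0.43 in eWAT and -0.73 in iWAT, and in BAT it was 0.25 with 35 of 37 above 0. In iWAT, auranofin libraries 1, 3 and 4 had summed FPKM of 259520 to 275614, and the other iWAT libraries 340536 to 369437. The part of this in the differences was not tested. Without vehicle libraries 1 and 2 of eWAT the median difference was 0.95, with 16 of 37 at that p (43.2%, against 6.64%), and on the TPM scale 0.76, where the median over all genes was -0.40. Mature adipocyte genes had a median difference of 0.89, with 13 of 30 at that p in the positive direction (43.3%, against 13.3% of all genes). Without those libraries it was 0.43 with 1 of 30 (3.33%, against 6.64%), a share below that of all genes. On the TPM scale it was 0.45 with 4 of 30 (13.3%, against 3.28%). Selenoprotein genes had 0.44, with 11 of 21 (52.4%, against 13.3%), or 0.48 and 7 of 21 (33.3%, against 6.64%) without those libraries. On the TPM scale their median was 0.09, where that over all genes was -0.40. For Gpx4 the difference was 1.86 ± 0.51 (SE), or 1.43 without vehicle libraries 1 and 2 of eWAT. Cell division genes had a median difference of -0.47, with 41 of 46 below 0 (50.6% of all genes were) and 17 at an unadjusted p under 0.05 in the negative direction (37%, against 10.3%). Leaving out vehicle libraries 1 and 2, this was -0.25 with 1 of 45 (2.22%, against 5.27%), a share below that of all genes. On the TPM scale it was -0.99 with 23 of 46, where 30.7% of all genes were at that p in the negative direction. Matrix proteases and their inhibitors had -0.73 with 12 of 29 in that direction (41.4%, against 10.3%), or -0.45 with 7 of 29 without those libraries (24.1%, against 5.27%). On the TPM scale they had -1.25 with 19 of 29 (65.5%, against 30.7%). Collagen chains had -0.38 with 7 of 20 (35%), or -0.49 with 5 of 20 (25%) without those libraries and -0.85 with 9 of 20 (45%) on the TPM scale, against the same shares of all genes.

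Against brown fat, 0 of 13842 genes passed (0%; smallest adjusted p 0.138), and 460 (3.32%) and 349 (2.52%) had an unadjusted p under 0.05 with a more positive and a more negative change in eWAT. Collagen genes had median changes of -0.33 in eWAT (21 tested) and -0.96 in BAT (17 tested). Gene by gene, their median difference was 0.32, with 16 of 20 above 0. At that p were 4 in the positive direction (20%, against 3.32% of all genes) and 1 in the negative (5%, against 2.52%). Matrix proteases and their inhibitors had a median difference of 0.06, and macrophage markers -0.14. For complex I the median changes were 0.43 and 0.25, with a median difference of 0.18 and 0 of 37 at that p in either direction. Cell division genes had a median difference of -0.35, with 12 of 45 at that p in the negative direction (26.7%, against 2.52% of all genes). Without vehicle libraries 1 and 2 of eWAT it was -0.15 with 1 of 41 (2.44%, against 1.42%). Asf1b, a histone chaperone of replicating cells, averaged 1.09 ± 0.305 FPKM in auranofin libraries and 2.65 ± 0.845 FPKM in vehicle libraries in eWAT, and in BAT 1.77 ± 0.352 FPKM in auranofin libraries and 1.54 ± 0.41 FPKM in vehicle libraries. The difference of changes was -0.92 ± 0.24 (SE) (unadjusted p = 0.00177), or -0.66 without those libraries. Slc6a6, the taurine transporter, had a difference of -0.96 ± 0.22 (SE), and averaged 12.5 ± 3.18 FPKM in auranofin libraries and 21.4 ± 3.24 FPKM in vehicle libraries in eWAT. C1qtnf1, a secreted relative of adiponectin, had a difference of 1.16 ± 0.26 (SE), with 18.1 ± 3.86 FPKM in auranofin libraries and 12.3 ± 3.29 FPKM in vehicle libraries in eWAT. For Pvr, a nectin-like adhesion receptor with the smallest p of this comparison, the difference of 0.90 ± 0.14 (SE) came with a change of 0.15 in eWAT and BAT averages of 3.9 ± 0.516 FPKM in auranofin libraries and 7.19 ± 0.287 FPKM in vehicle libraries.

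**Figure D5:**
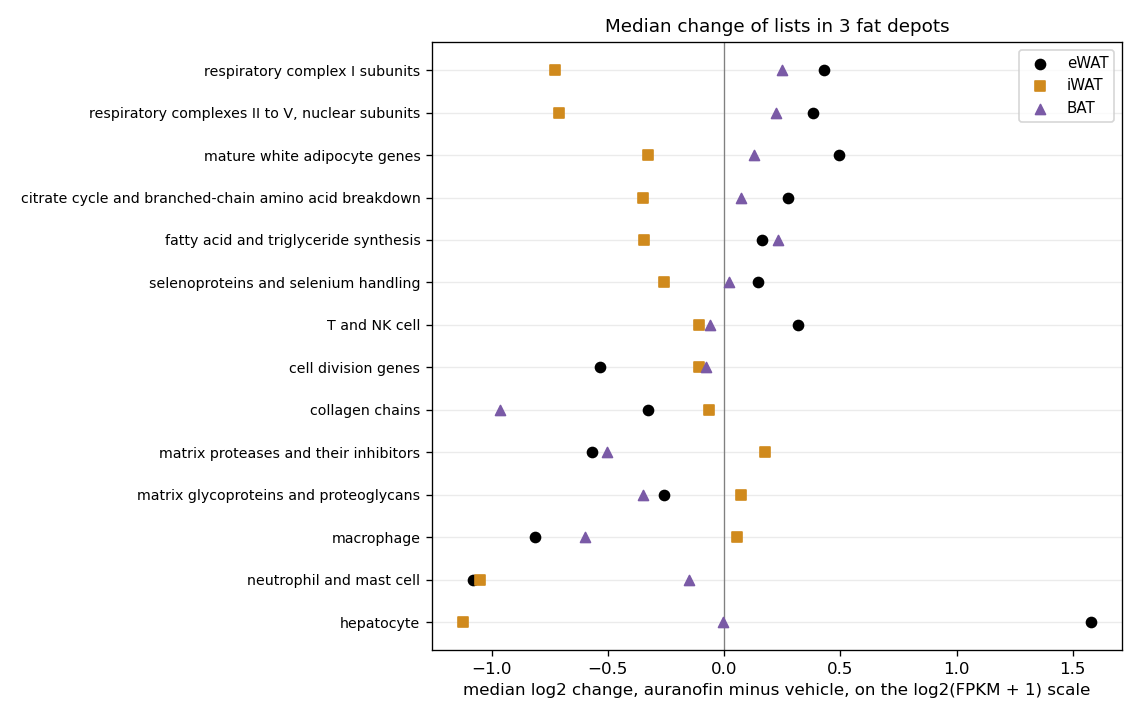
Median log2 change (auranofin minus vehicle, log2(FPKM + 1) scale) of 14 lists in eWAT (circles), iWAT (squares) and BAT (triangles), 4 libraries a group in each depot. Respiratory complex I lies at 0.43 in eWAT, -0.73 in iWAT and 0.25 in BAT, and collagen chains lie at -0.33 in eWAT and -0.96 in BAT.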

How the data were processed

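RNA of epididymal fat was sequenced in 4 auranofin and 4 vehicle libraries, made from total RNA with a non-stranded kit, per the labels. The values are FPKM per gene, deposited by the authors in 1 table of all 32 libraries beside the gene length in bases (another deposited value). Build mm10 and the tools DESeq2 1.20.0, featureCounts 1.5.0-p3, STAR 2.6.1d and CASAVA are named, per the submitters' processing notes, without roles. Of the 54532 identifiers, 54409 were in GENCODE M21, 98.33% of them with the same start and end.

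Values were tested as log2(FPKM + 1) in limma 3.58.1 (R 4.3.3), using its intensity trend, for genes with a mean of 0.5 FPKM or more over the 8 libraries, with Benjamini-Hochberg adjustment over all of them at 0.05. Differences between depots were interaction terms over 16 libraries. The code was tested on simulated data. FPKM times gene length came to whole reads in 100% of values (within 0.1 read), and voom was run on these with the library sizes that the FPKM values imply. In eWAT these sizes ran from 18367959 (auranofin library 1) to 24013795 (vehicle library 1), so voom does not check that scaling. The 15031255 to 17068533 reads per library set counting error, which is only part of the spread between libraries.

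Named genes were Lep, Adipoq, Adgre1, Txnrd1, Nqo1, Mt1 and Mt2, then up to 5 protein-coding genes per direction by smallest p, with a mean of 1 FPKM or more in a group and non-overlapping groups, up to 4 members with the smallest p of each list, and up to 5 per direction of each interaction by the same conditions. Some genes that met these conditions are not reported here. Wt1, Ucp1 and Col4a1 were added after their values were seen. The members, the 36 gene lists and 14 marker lists were chosen with earlier results of these data known. Alternatives were the pseudocount, the filter, TPM and quantile scaling, library weights, voom, 1 fit of all tissues, a replicate block and leaving out libraries. Promoter windows are RefSeq's, build GRCm38.p6. Liver libraries entered the fit of all tissues and a separate fit whose results are not given here.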

Additional observations from a re-analysis of the deposited data

Results flagged for a closer look

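In groups of 4 libraries, 1 library lay far from the other 3 by Dixon's criterion, for 20 of 278 gene values and 6 of 98 list levels looked at. Chance gives about 1 in 20 groups. The causes were not tested.

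Auranofin library 2 stood apart most often among the auranofin libraries. It was above the other 3 for Adrb3 (131.5 FPKM, the others 65.2 to 72.2) and Gpx3 (411.7 FPKM, the others 203 to 215). It was below them for Atf3 (5.275 FPKM, the others 24.5 to 28.4), Col6a3 (7.427, the others 12.8 to 14.1), Mmp19 (13.36, the others 17.0 to 17.8) and Ctss, the macrophage protease cathepsin S (119.1, the others 320 to 391). It was also lowest for Fap (1.158), Melk (0.1179) and the mean log2 level of collagen processing genes (3.491, the others 3.70 to 3.72). Auranofin library 1 was highest for Prdx5 (222.9 FPKM, the others 121 to 133), Lsm7 (16.39 FPKM), the thioredoxin list (mean log2 level 5.196) and the stress list of unfolded protein and integrated responses (4.187).

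Among vehicle libraries, library 2 was highest for mt-Nd1 (5873 FPKM, the others 3041 to 3110), the mitochondrially encoded list (mean log2 level 9.34, the others 8.07 to 8.18) and Pcyt1a (10.05 FPKM). It was lowest for Hsf1 (2.174 FPKM), P3h4 (2.207), the interferon-inducible membrane protein gene Bst2 (20.92, the others 50.9 to 57.6), collagen chains (mean log2 level 4.314, the others 4.56 to 4.59) and the list of p53, senescence and apoptosis genes (3.119). Vehicle library 1 was highest for Mical2 (4.094 FPKM), Ccl2 (60.74, the others 21.4 to 23.3), Egr2 (9.424) and Ambp (1.271), and lowest for Gsta4 (1.908, the others 6.23 to 7.19).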

How the results depend on the processing

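With eWAT alone, 0 genes passed in either direction under a pseudocount of 0.1, no filter, the TPM scale, quantile normalisation, voom, no intensity trend and an adjusted p under 0.1. With 1 fit of all libraries 491 genes passed as higher and 789 as lower, and with sample quality weights 3 and 3 did; the cause was not tested. The 6 were Eid2b, Gm13470 and Trbj2-5 (higher) and Gm17147, Gm7079 and Igkv4-86 (lower), of which only Eid2b is a protein-coding gene outside the receptor loci. Leaving out each library in turn gave 0 to 1 higher (Trbj2-5, without auranofin library 1) and 0 to 0 lower. For the difference from iWAT it gave 0 to 2036 genes and for that from BAT 0 to 2 (Thbs1 and Pvr, without BAT auranofin library 2). Without vehicle libraries 1 and 2 of eWAT, an alternative for the depots that was chosen after seeing the data, 2 genes passed against iWAT (Snord83b and Igkv4-86) and 1 against BAT (Igkv4-86). Without a filter 1 gene passed against BAT (Gm19510). With the replicate number as a block 0 genes passed in each direction, with a smallest adjusted p of 0.525 and 558 higher and 468 lower at an unadjusted p under 0.05. Same-numbered auranofin and vehicle libraries had correlations of their deviations of -0.11, -0.08, 0.08 and 0.01. So few values cannot show whether the numbers pair libraries, and the labels do not say. With a block by number, 0 genes passed for either depot difference, as in the main fits.

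Of the 139 tested genes named by the stated conditions, 3 changed sign. Wt1, Ucp1 and Col4a1, which were added later, were not in this count. Lep ranged from -0.53 to 0.12, Mt1 from -0.23 to 0.043 and Mt2 from -0.27 to 0.18 as single libraries were left out, and the log2 change of Mt2 was 0.0119 with voom. Low counts limit the cell division genes, and a member such as Ect2 rested on 14 to 154 reads per library. With 4 libraries a group and 2 of the vehicle libraries apart from the rest, 1 library moves many values, and levels under 1 FPKM are compressed by the pseudocount.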

Other observations

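B and plasma cell markers differed between single libraries more than between groups. Jchain, the joining chain of secreted antibodies, had 14.9, 55.9, 52.3 and 8.27 FPKM in the auranofin libraries, against 23, 92.5, 41.1 and 22.2 FPKM in the vehicle libraries, and the median of the 13 markers tested was 0.16, or -0.12 without vehicle libraries 1 and 2. Monocyte and dendritic cell markers had a median of -0.08, or -0.01 without those libraries, with the monocyte receptor gene Ccr2 at 3.95, 3.41, 6.98 and 6.07 FPKM in the auranofin libraries, against 12.4, 7.43, 6.13 and 5.92 FPKM in the vehicle libraries. Complement genes had a median of -0.22 with 17 of 27 below 0, or -0.13 with 16 of 27 without them, although Cfd, a member of that list, had the highest change of all genes tested.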
